A study of Mus musculus with 24 samples.

Results

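The endoplasmic reticulum folding and translocation genes are 40 genes chosen by symbol from a fixed list: all 40 had a mean of at least 1 CPM (counts scaled to a common library size), among 16118 genes that did so and 35191 genes in all. They comprise 14 genes for folding in the lumen, 7 for stress signalling, 7 for degradation and 12 for the import of new proteins. The list was chosen with earlier results of these data known, which limits every comparison of its counts with those over all genes. All 40 averaged at least 5 CPM, as 12338 of the 21927 genes tested did. The shares over all genes given below are not matched for level. The libraries were polyA RNA sequencing of mouse pituitary, 24 in 8 groups of 3, with males and females in each of 4 genotypes. Egr1cKO (labelled FF with Cre) and Egr1cKO control (FF without Cre) carry floxed Egr1, a gene for a zinc-finger transcription factor. Cre control (wt with Cre) and wild type (wt without Cre) carry no floxed allele. The Cre driver was not given in the sources used here, nor were the floxed exon and the animals' ages. A count per gene does not show whether an exon is missing. Egr1 messenger averaged no lower in Egr1cKO than in Egr1cKO control. In Egr1cKO it measured 58.2, 238 and 105 CPM in males and 162, 7.55 and 26.6 CPM in females. Egr1cKO control measured 51.1, 22.7 and 42.7 CPM in males and 34.2, 10.96 and 9.78 CPM in females. These floxed groups overlapped in females and not in males. Cre control measured 485, 74.2 and 25.2 CPM in males and 61.7, 485 and 94.7 CPM in females. Egr1cKO averaged below Cre control, at 134 against 195 CPM in males and 65.4 against 214 CPM in females, with overlap in both sexes. CPM values here are scaled by TMM, edgeR's correction for library composition.

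Secreted hormones such as growth hormone (Gh), prolactin (Prl) and pro-opiomelanocortin (Pomc) enter the endoplasmic reticulum while they are being made. The SEC61 channel, with the TRAP complex (the Ssr genes) and SEC62 and SEC63, passes the new chain into the lumen, and the signal peptidase complex (the Spcs genes) cuts off its leader. Chaperones led by BiP (Hspa5) and the disulfide isomerases then fold it, and chains that fail are sent back through the derlins and the HRD1 ligase (Syvn1) with SEL1L for destruction. When unfolded chains build up, the sensors IRE1 (Ern1), PERK (Eif2ak3) and ATF6 act through XBP1 and ATF4 to raise the genes of the folding machinery. ATF6 and XBP1 are known to act through the ER stress response element, a CCAAT box, a spacer and a CCACG box.

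The element (CCAAT, 9 bases of any kind, CCACG) was searched on both strands of RefSeq promoter windows (GRCm38.p6, 250 bases before to 50 after the start), because it is the textbook element of chaperone promoters. Windows were found for 33 of the 40 genes. The element lay in the windows of 9 of these 33 (27.3%) and of 37 of 27025 genes searched (0.137%). As it is known from chaperone promoters and the list holds chaperone genes, the higher share describes the list and is no test. Its 10 copies, in Hspa5, Calr, Derl3, Hsp90b1 (2 copies), Canx, Pdia6, Dnajc3, Creld2 and Syvn1, are shown with their fixed letters in capitals, each written in the direction of the motif.
Hspa5, chr2:34772025-34772043: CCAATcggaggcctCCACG
Calr, chr8:84847075-84847093: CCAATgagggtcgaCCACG
Derl3, chr10:75893242-75893260: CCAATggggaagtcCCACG
Hsp90b1, chr10:86705638-86705656: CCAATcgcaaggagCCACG
Hsp90b1, chr10:86705533-86705551: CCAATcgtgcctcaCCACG
Canx, chr11:50325800-50325818: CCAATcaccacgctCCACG
Pdia6, chr12:17266491-17266509: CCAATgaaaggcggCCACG
Dnajc3, chr14:118937827-118937845: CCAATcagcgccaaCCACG
Creld2, chr15:88819520-88819538: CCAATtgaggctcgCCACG
Syvn1, chr19:6046532-6046550: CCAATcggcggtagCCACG

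The related element (ATTGG, 1 base of any kind, CCACG) lay in the windows of 2 of the 33 genes, Herpud1 and Dnajb11, and of 0.0444% of all genes searched, again shown with the fixed letters in capitals.
Herpud1, chr8:94386377-94386387: ATTGGgCCACG
Dnajb11, chr16:22857852-22857862: ATTGGcCCACG

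The whole windows of 5 genes that the results below turn on, all from RefSeq on GRCm38.p6 and written in the direction of the gene, show where the elements sit. Capitals mark the fixed letters of the first element in Hspa5, Calr, Creld2 and Pdia6 and of the related element in Dnajb11. Those of the first element read CGTGG to ATTGG where the motif lies on the opposite strand, as in Calr and Creld2.
Hspa5, chr2:34771840-34772139 (plus strand): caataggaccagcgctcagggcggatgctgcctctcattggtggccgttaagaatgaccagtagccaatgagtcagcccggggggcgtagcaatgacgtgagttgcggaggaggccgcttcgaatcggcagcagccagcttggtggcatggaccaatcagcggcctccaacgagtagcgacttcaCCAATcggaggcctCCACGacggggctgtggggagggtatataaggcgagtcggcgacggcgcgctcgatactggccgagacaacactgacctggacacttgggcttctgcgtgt
Calr, chr8:84846882-84847181 (minus strand): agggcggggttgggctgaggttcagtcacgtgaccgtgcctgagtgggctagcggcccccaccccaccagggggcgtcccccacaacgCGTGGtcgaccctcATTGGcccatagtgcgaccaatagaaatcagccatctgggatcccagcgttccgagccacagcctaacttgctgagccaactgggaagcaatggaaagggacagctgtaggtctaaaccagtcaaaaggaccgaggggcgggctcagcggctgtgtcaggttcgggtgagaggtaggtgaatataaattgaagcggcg
Creld2, chr15:88819396-88819695 (plus strand): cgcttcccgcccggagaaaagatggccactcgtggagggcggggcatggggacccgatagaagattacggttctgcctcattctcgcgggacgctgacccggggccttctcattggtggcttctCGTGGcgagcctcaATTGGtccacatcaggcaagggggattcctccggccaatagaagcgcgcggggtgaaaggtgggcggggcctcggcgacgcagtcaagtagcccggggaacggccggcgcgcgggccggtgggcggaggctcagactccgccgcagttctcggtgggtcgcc
Pdia6, chr12:17266339-17266638 (plus strand): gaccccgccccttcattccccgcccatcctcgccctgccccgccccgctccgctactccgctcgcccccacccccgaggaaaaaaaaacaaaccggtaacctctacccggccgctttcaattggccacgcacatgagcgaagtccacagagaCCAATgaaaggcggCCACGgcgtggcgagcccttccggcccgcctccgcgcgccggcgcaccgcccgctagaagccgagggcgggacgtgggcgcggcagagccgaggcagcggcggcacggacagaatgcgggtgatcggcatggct
Dnajb11, chr16:22857595-22857894 (plus strand): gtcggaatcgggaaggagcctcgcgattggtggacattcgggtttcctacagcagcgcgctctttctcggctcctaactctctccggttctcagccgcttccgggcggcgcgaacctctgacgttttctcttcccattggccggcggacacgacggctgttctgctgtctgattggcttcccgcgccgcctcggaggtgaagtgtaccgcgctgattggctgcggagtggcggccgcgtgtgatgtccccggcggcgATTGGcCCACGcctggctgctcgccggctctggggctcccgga

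Of the other motifs searched, the XBP1 site TGACGTGG lay in 0 of the 33 windows and 0.714% of all genes. The site TGATGNAA, of the kind bound by ATF4 with a partner, lay in 2 (Trib3 and Herpud1) and 4.51% of all genes. The EGR site GCGTGGGCG lay in 1 (Spcs1) and 0.707% of all genes. A match is only a match of letters in this window. The windows of Sdf2l1 and Pdia4 held none of the 5 motifs.

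Total counts ranged from 15486069 to 26255343 per library. The titles number the libraries in a pair of series, 1 for wild type and Cre control and 1 for both floxed genotypes, so floxing and series cannot be told apart. Nothing beyond these numbers says that libraries came from separate animals, and p-values then measure only the spread between these samples. Female wild type replicate 1 stood apart: it held the lowest level of 12 of the 40 genes, 18604 genes detected at equal depth against 23656 and 24769 in its group, and 10.1% of counts from 18 mitochondrially encoded genes against 2.14% and 2.695%. Comparisons of the 40 genes whose groups include it are given with and without it. It also enters the shared estimate of the spread in every other comparison, and those were not refitted without it. The mitochondrial share was also high in female Egr1cKO, at 8.73, 9.13 and 10.4%, against 4.33, 6.87 and 3.498% in female Egr1cKO control. Libraries are unstranded, so genes that overlap another can share reads. Among the genes followed here, Spcs1 shares 16.3% of its exonic bases with Glt8d1, a more highly counted gene on the opposite strand, and Ddit3 shares 3.97% with the more highly counted Mars; the shares of other overlapping pairs ran from 0.397% to 12.8%.

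The 40 genes differed widely in level. They were compared per kilobase, by the median length of each gene's coding transcripts. The highest were Pdia3, a disulfide isomerase for glycoproteins, at 290.2 CPM per kilobase, Manf, a small lumenal protein that binds BiP, at 269, and Ssr2, a TRAP subunit, at 261. Calr (calreticulin), Hspa5 and Xbp1 followed at 260.3, 247 and 225 CPM per kilobase. These ranks depend on the length used, which for Manf was 545 bases, against 3524 exonic bases in all. By CPM alone Manf averaged 146 and Hspa5 775. The lowest were Atf6 at 5.596, Edem1, which picks misfolded glycoproteins, at 5.09, and Trib3, a target of ATF4 and CHOP, at 2.71 CPM per kilobase. Within groups their median standard deviation on the log2 scale was 0.277, with a range of 0.108 (Sel1l) to 0.581 (Atf6). That was below the 0.426 over all 21927 genes tested. It was close to the 0.302 over those with a mean of at least 5 CPM. Over the 24 libraries the highest level exceeded the lowest by 1.29-fold in Sel1l, the partner of HRD1, and by 6.46-fold in Atf6, 5.999-fold in Spcs1 and 5.76-fold in Derl3.

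**Figure D1:**
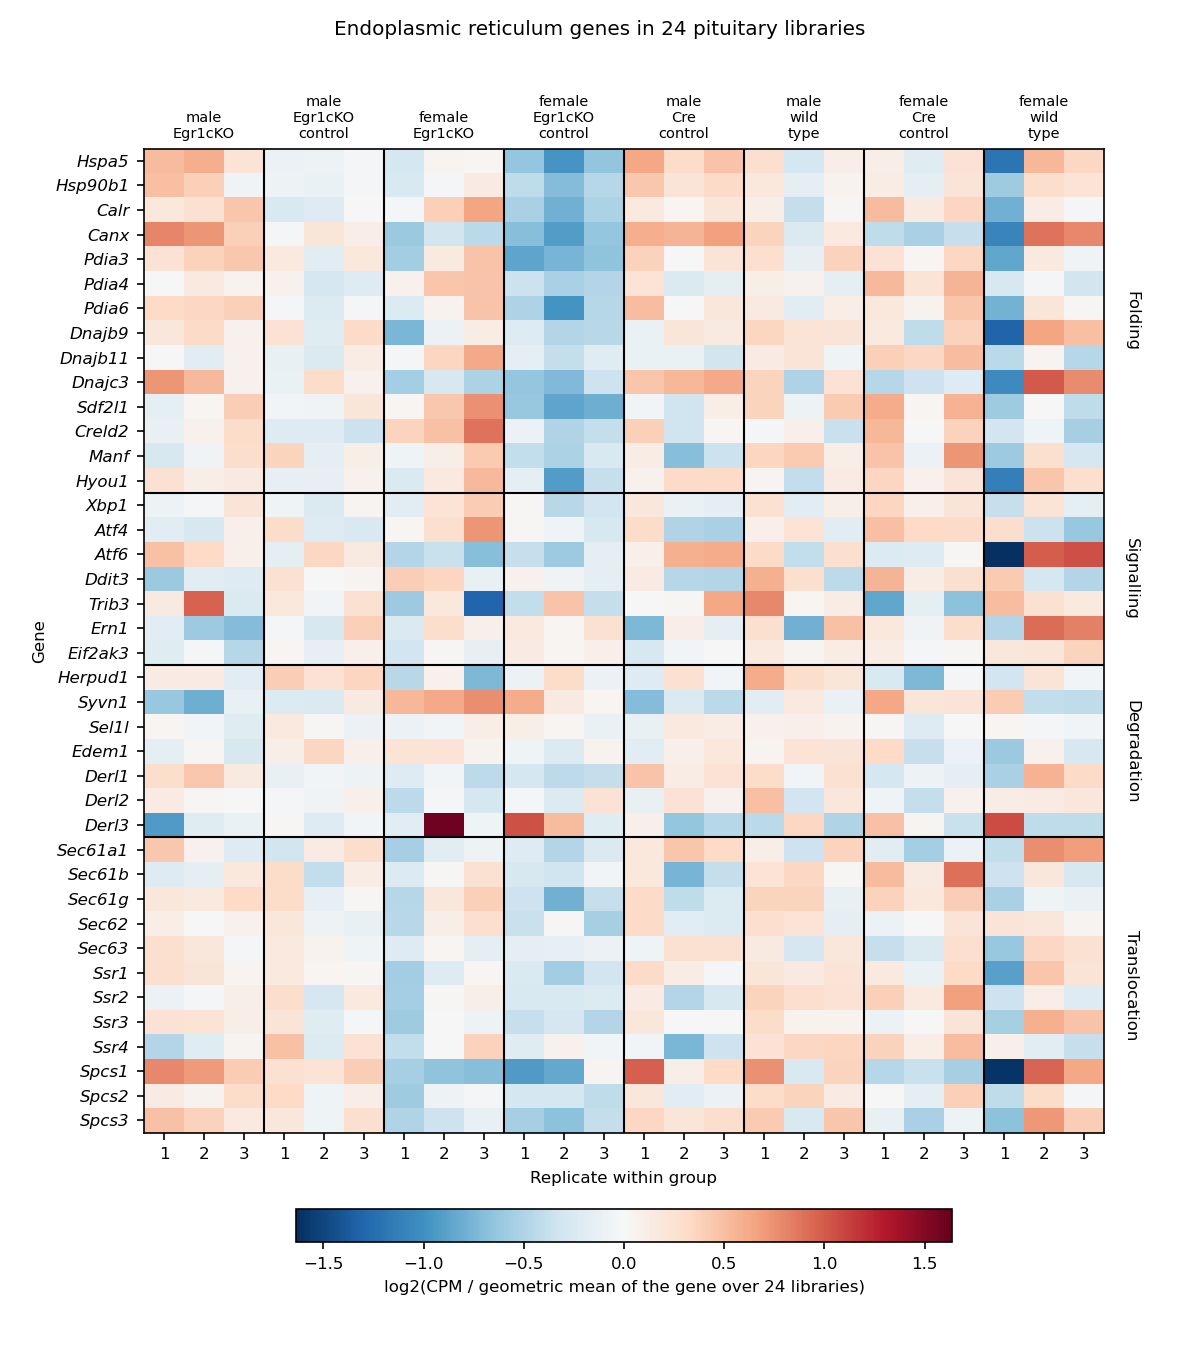
Levels of the 40 genes (rows, by role) in 24 libraries (columns, 3 replicates per group), as the log2 ratio of each CPM to that gene's geometric mean. Female wild type replicate 1 is dark blue in Hspa5, Canx, Dnajb9, Atf6 and Spcs1, while replicates 2 and 3 of its group are red, and most folding genes are blue in all 3 female Egr1cKO controls.

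Hspa5 encodes BiP, the lumenal chaperone that also holds the stress sensors inactive. In males it measured 1054, 1115 and 864 CPM in Egr1cKO, against 693, 699 and 722 CPM in Egr1cKO control. Male Cre control measured 1146, 909 and 1024 CPM, against 893, 606 and 799 CPM in wild type. In females it measured 606, 764 and 754 CPM in Egr1cKO, against 474, 377 and 470.0 CPM in Egr1cKO control. Female Cre control measured 796, 642 and 866 CPM, against 321, 1078 and 930.0 CPM in wild type. The libraries with Cre lay above those without it, with no overlap, in both male pairs and in the floxed female pair. In the unfloxed female pair the groups overlapped, as wild type held both the lowest level of all and the highest among females.

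Hsp90b1 encodes GRP94, the lumenal HSP90. In males it measured 436, 406 and 298 CPM in Egr1cKO, against 294, 289 and 306 CPM in Egr1cKO control. Male Cre control measured 424, 359 and 385 CPM, against 351, 279.6 and 325 CPM in wild type. In females it measured 261, 303 and 341 CPM in Egr1cKO, against 233, 190.1 and 225 CPM in Egr1cKO control. Female Cre control measured 339, 278 and 359 CPM, against 207, 379 and 365 CPM in wild type. Cre-carrying libraries lay above the others, with no overlap, in the unfloxed male and the floxed female pairs. The floxed male groups overlapped, and in unfloxed females the wild type libraries lay on both sides of those of Cre control.

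Sdf2l1 encodes a lumenal partner of the BiP co-chaperone ERdj3. In males it measured 33.2, 37.4 and 48.5 CPM in Egr1cKO, against 35.6, 35.2 and 42.1 CPM in Egr1cKO control. Male Cre control measured 35.5, 29.2 and 39.4 CPM, against 47.1, 34.7 and 49.4 CPM in wild type. In females it measured 37.4, 49.7 and 61.7 CPM in Egr1cKO, against 23.8, 20.05 and 20.97 CPM in Egr1cKO control. Female Cre control measured 55.6, 37.4 and 54.2 CPM, against 24.5, 36.4 and 27.5 CPM in wild type. All 3 female Egr1cKO libraries lay above all 3 female Egr1cKO controls, which were the lowest of the study. Female Cre control lay above female wild type, while the male Cre control and wild type libraries overlapped.

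Xbp1 encodes the transcription factor that IRE1 activates by splicing, which counts per gene do not show. In males it measured 232, 240.5 and 282 CPM in Egr1cKO, against 234, 208 and 253 CPM in Egr1cKO control. Male Cre control measured 279, 227 and 220.2 CPM, against 291, 216 and 261 CPM in wild type. In females it measured 218, 285 and 327 CPM in Egr1cKO, against 248, 179 and 197 CPM in Egr1cKO control. Female Cre control measured 312, 259 and 284 CPM, against 188, 286 and 222 CPM in wild type. All 4 pairs of groups overlapped.

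Atf4 encodes the factor whose translation rises when PERK is active. In males it measured 143, 136 and 172 CPM in Egr1cKO, against 200.3, 141 and 137 CPM in Egr1cKO control. Male Cre control measured 201, 116 and 113 CPM, against 173, 191 and 144 CPM in wild type. In females it measured 167, 196 and 270.4 CPM in Egr1cKO, against 165, 155 and 136 CPM in Egr1cKO control. Female Cre control measured 229, 205 and 203 CPM, against 198, 128 and 106 CPM in wild type. Cre-carrying females lay above their controls in both pairs, with no overlap, and the male groups overlapped in both.

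Ddit3 encodes CHOP, a factor of prolonged stress downstream of ATF4. In males it measured 13.2, 17.7 and 17.3 CPM in Egr1cKO, against 23.9, 20.2 and 20.6 CPM in Egr1cKO control. Male Cre control measured 22.05, 14.5 and 14.4 CPM, against 30.04, 24.2 and 14.9 CPM in wild type. In females it measured 26.6, 25.6 and 18.4 CPM in Egr1cKO, against 21.02, 19.4 and 18.1 CPM in Egr1cKO control. Female Cre control measured 29.6, 21.8 and 24.05 CPM, against 26.96, 16.5 and 14.4 CPM in wild type. Male Egr1cKO lay below its control in all 3 libraries. The female floxed groups and both unfloxed pairs overlapped.

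In females, 4 chaperone and disulfide isomerase genes were higher in Egr1cKO than in Egr1cKO control. The comparison asks what Cre does where Egr1 is floxed. Sdf2l1, Pdia4 (ERp72, a disulfide isomerase), Calr (calreticulin, a lectin chaperone) and Creld2 (a lumenal disulfide isomerase) passed the test, all higher, from 0.80 to 1.20 on the log2 scale. All 14 folding genes had a positive fitted change (46.2% of all genes did). Their median was 0.66, against 0.13 for the 12 translocation genes and -0.048 over all 21927 genes tested. Over tested genes with a mean of at least 5 CPM it was 0.0054. Thus 4 of the 40 genes passed in the higher direction and 0 in the lower, where 0.762% and 1.45% of all genes did (2.21% in either direction). These are bulk samples, so more cells rich in these messengers and more of these messengers per cell cannot be told apart.

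Calr measured 537, 722 and 859 CPM in female Egr1cKO, against 381, 318 and 386 CPM in female Egr1cKO control. The lowest Egr1cKO library lay above the highest control, and the fitted change was 0.97 (SE 0.213, edgeR adjusted p = 0.0154). Pdia4 measured 149, 195 and 197 CPM in female Egr1cKO, against 111, 99.00 and 102 CPM in female Egr1cKO control, a change of 0.80 (SE 0.168, edgeR adjusted p = 0.0108). These groups did not overlap either. Creld2 measured 64.8, 70.4 and 93.02 CPM in female Egr1cKO, against 47.3, 35.8 and 38.4 CPM in female Egr1cKO control, a change of 0.91 (SE 0.204, edgeR adjusted p = 0.0173). For Sdf2l1, whose libraries are given above, the change was 1.20 (SE 0.218, edgeR adjusted p = 0.00341). Only the Sdf2l1 call was kept in all 6 fits that left out 1 library of the pair. Without female Egr1cKO control replicate 2 the adjusted p was 0.0675 for Pdia4, 0.0972 for Calr and 0.0987 for Creld2, and without female Egr1cKO replicate 3 it was 0.0652, 0.107 and 0.117 for the same 3 genes. Without female Egr1cKO control replicate 3 it was 0.0646 for Creld2, and without female Egr1cKO replicate 1, 8 genes passed, where 2.52% of all genes did.

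Other folding genes had changes of similar size that missed the threshold. They were 0.83 for Pdia3 (edgeR adjusted p = 0.0612), 0.76 for the disulfide isomerase Pdia6 (0.0619), 0.69 for Hspa5 (0.166), 0.63 for Hyou1, the GRP170 exchange factor of BiP (0.199), 0.59 for Dnajb11 (ERdj3, 0.0728), 0.55 for Manf (0.200) and 0.48 for Hsp90b1 (0.185). The summed level of the 14 folding genes was 3922 ± 804 CPM in female Egr1cKO and 2419 ± 229 CPM in female Egr1cKO control (SD, n = 3 each). The stress signalling genes did not share the direction: 3 of 7 were positive, with 0.41 for Xbp1, 0.47 for Atf4, 0.27 for Ddit3 and -0.14 for Atf6, and none passed. Nor did any of the 7 degradation genes pass, at 0.36 for Syvn1 and -0.38 for Herpud1, a membrane partner of HRD1. None of the 12 translocation genes passed, at a highest of 0.57 for Sec61g, the small channel subunit.

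Cell type markers and library quality moved with this comparison, and their part in the result was not tested. The summed level of 6 corticotrope and melanotrope markers, Pomc among them, was 82146 to 226665 CPM in female Egr1cKO against 11873 to 39208 CPM in its control, with 2 of 6 called higher. That of 6 somatotrope and lactotrope markers was 66229.7 to 113567 CPM against 188209 to 313294 CPM, with 1 called higher and 2 lower. Hormone messengers made up nearly all of both sums. In female Egr1cKO Pomc averaged 164992 of 166890 CPM, and Gh and Prl 57573 and 38552 of 96511 CPM. These sums therefore say little of the other markers. The 6 posterior lobe markers summed to 347 to 449.8 CPM against 186 to 201 CPM, with 1 called higher. Markers of antibody-secreting plasma cells, which are rich in these genes, summed to 33.7 to 58.5 CPM against 30.7 to 56.8 CPM, with 0 of 4 tested called. No marker of these 4 lists was at 0 in every library, and 1 plasma cell marker was at 0 in female Egr1cKO. With the mitochondrial share of each library as a covariate, 20 of the 40 genes passed as higher and 0 as lower. Of all genes, 7.5% and 6.55% did. The 20 held 13 of the 14 folding genes, such as Hspa5 at 1.47 and Hyou1 at 1.46 on the log2 scale. Such a fit rests on differences in the share within groups. Their SD was 4.42 percentage points in female wild type, against 0.524 to 1.76 in the other groups. No fit with this covariate left out female wild type replicate 1.

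**Figure D2:**
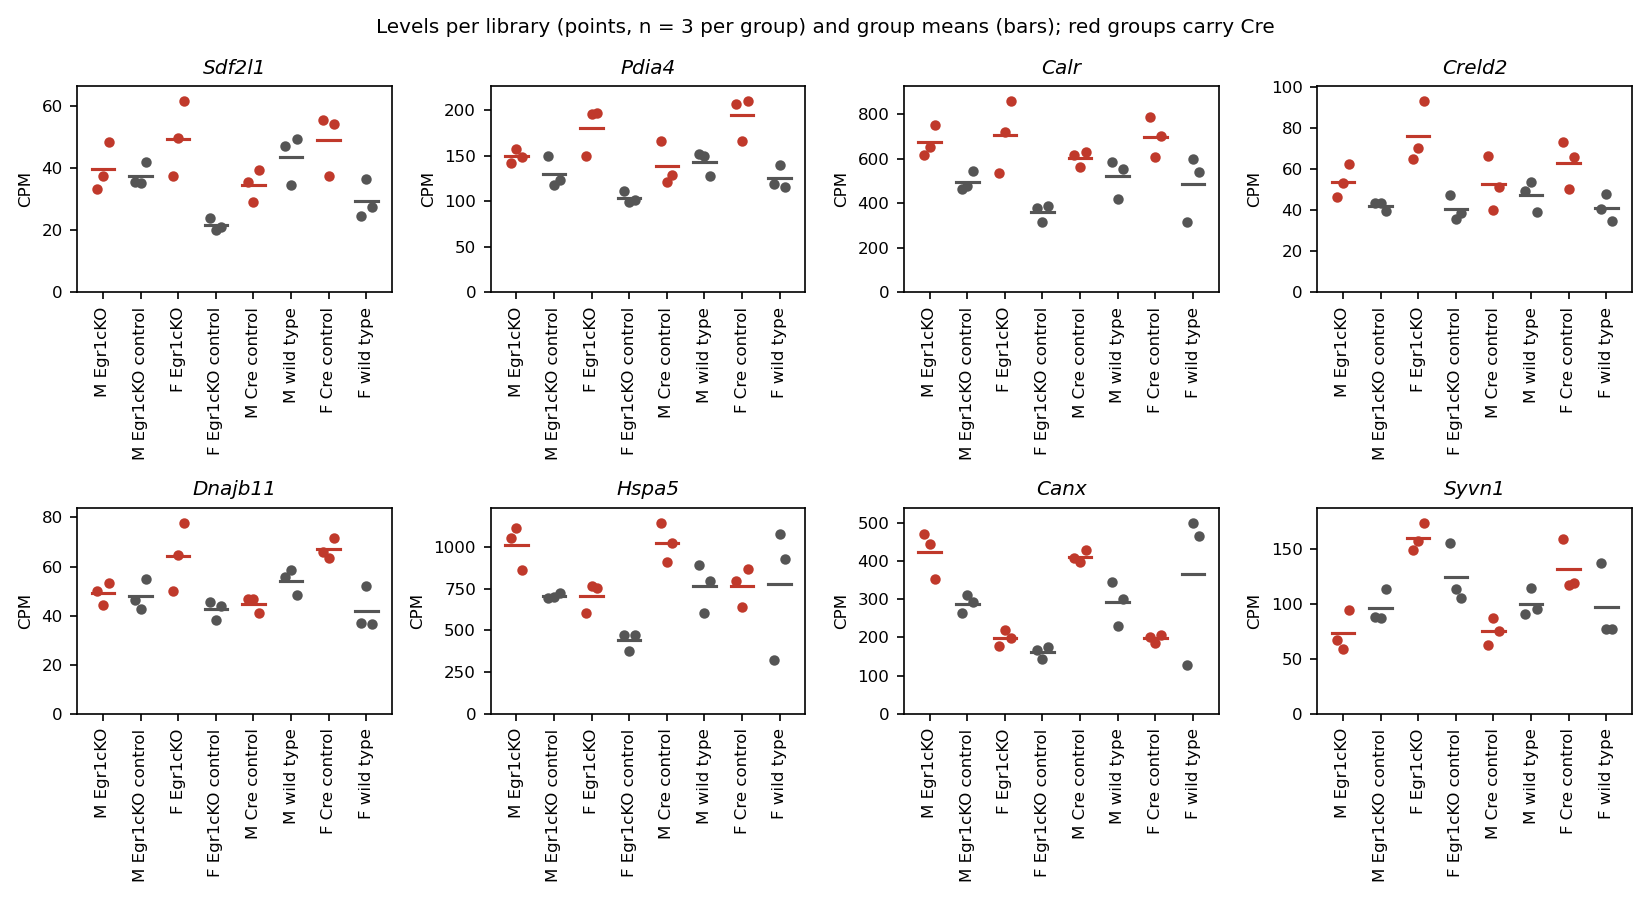
CPM of 8 genes in each library (points) with group means (bars), red for groups that carry Cre and the others for groups that do not. In females the Egr1cKO points of Sdf2l1, Pdia4, Calr and Creld2 lie above those of Egr1cKO control, and Canx and Hspa5 show 1 low and 2 high points in female wild type.

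In males, none of the 40 genes passed the test between Egr1cKO and Egr1cKO control, and the highest fitted changes were those of folding genes. The edgeR test called 0 of the 40, where 0.041% of all genes passed, and DESeq2 also called 0. At an unadjusted p under 0.05, 1 gene was higher and 0 lower (2.88% and 3.69% of all genes). The 3 smallest p-values belonged to folding genes: Calr at 0.45 (SE 0.212, edgeR adjusted p = 0.754), Pdia6 at 0.44 (SE 0.218, edgeR adjusted p = 0.755) and Canx, the membrane-bound relative of calreticulin, at 0.55 (SE 0.284, edgeR adjusted p = 0.788). Canx measured 471, 445 and 353 CPM in male Egr1cKO, against 263, 309.8 and 292 CPM in male Egr1cKO control, with no overlap. Calr and Pdia6 did not overlap either, and 13 of 14 folding genes were positive (52.6% of all genes were), with a median of 0.32 against 0.028 over all genes. Sdf2l1 had a fitted change of 0.079. Thyrotrope markers summed to 678 to 943 CPM in male Egr1cKO, against 252 to 376 CPM in its control. Corticotrope and melanotrope markers summed to 39377 to 112328 against 7507 to 31426 CPM, and posterior lobe markers to 227 to 258 against 74.8 to 209 CPM. The sum of somatotrope and lactotrope markers was lower, also without overlap. The other cell type lists overlapped, and the part of the markers was not tested.

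Without floxed Egr1, the comparison of Cre control with wild type asks what Cre alone does. In males the edgeR test called 0 of the 40 genes, against 0.233% of all genes, with 0 higher and 3 lower at an unadjusted p under 0.05 (4.84% and 6.0% of all genes) and 0 called by DESeq2. The smallest p-values belonged to 2 TRAP subunits and Manf, with negative values that did not pass: Ssr4 at -0.66 (SE 0.215, edgeR adjusted p = 0.249), Manf at -0.57 (SE 0.237, edgeR adjusted p = 0.390) and Ssr2 at -0.47 (SE 0.195, edgeR adjusted p = 0.392). Ssr4 measured 163, 99.8 and 133 CPM in male Cre control, against 198, 213 and 214 CPM in male wild type. These groups did not overlap, whereas Manf overlapped through 1 library. The hormones' share of all counts was 15.3, 12.9 and 11.3% in male Cre control against 32.2, 26.7 and 24.8% in male wild type. With this share as a covariate the Ssr2 change turned to 0.015. Thyrotrope markers summed to 736 to 1202 CPM in male Cre control, against 362 to 590 CPM in male wild type. Posterior lobe markers summed to 157 to 239 against 93.4 to 152 CPM. The sum of somatotrope and lactotrope markers was lower without overlap. The other cell type lists overlapped, and the part of the markers was not tested.

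In females the same comparison depended on 1 library. With all 6 libraries the edgeR test called 0 of the 40 genes, against 1.2% of all genes, with 11 higher and 5 lower at an unadjusted p under 0.05 (6.07% and 10.7% of all genes) and 4 called by DESeq2 (4.61% of all genes). Nearest to the threshold were Dnajb11 at 0.68 (SE 0.178, edgeR adjusted p = 0.0536), Pdia4 at 0.64 (SE 0.168, edgeR adjusted p = 0.0540) and Sdf2l1 at 0.73 (SE 0.216, edgeR adjusted p = 0.0832). Dnajb11 measured 66.01, 63.6 and 71.8 CPM in female Cre control, against 37.1, 52.2 and 36.7 CPM in female wild type, and Pdia4 measured 207, 167 and 209.9 CPM in female Cre control, against 119, 140.0 and 116 CPM in female wild type. All 3 genes were separate between the groups. Canx measured 202, 186 and 207 CPM in female Cre control, against 127, 500.2 and 467 CPM in female wild type. Female wild type replicate 1 thus lay below every Cre control library and the other 2 wild type libraries above them. Thyrotrope markers summed to 612 to 740 CPM in female Cre control, against 240.2 to 254 CPM in female wild type. Posterior lobe, gonadotrope, and corticotrope and melanotrope sums were also higher without overlap. Those of somatotropes and lactotropes and of fibroblasts were lower without overlap. The other cell type lists overlapped, and the part of the markers was not tested.

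Without female wild type replicate 1, 12 of the 40 genes passed, 4 higher and 8 lower, where 6.65% and 8.88% of all genes did. The higher ones were Atf4 at 0.86, Syvn1 at 0.77, Pdia4 at 0.60 and Dnajb11 at 0.59. The lower ones were Canx at -1.29, the signal peptidase subunits Spcs1 at -1.26 and Spcs3 at -0.80, the co-chaperone Dnajc3 at -1.23, Atf6 at -1.15, the channel gene Sec61a1 at -0.99, the derlin Derl1 at -0.62 and the TRAP subunit Ssr3 at -0.49 on the log2 scale. The group then has 2 libraries. The mitochondrial share was 6.04, 5.52 and 6.69% in female Cre control, against 10.1, 2.14 and 2.695% in female wild type, and with it as a covariate 4 genes passed as higher and 0 as lower, where 1.3% and 1.42% of all genes did.

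**Figure D3:**
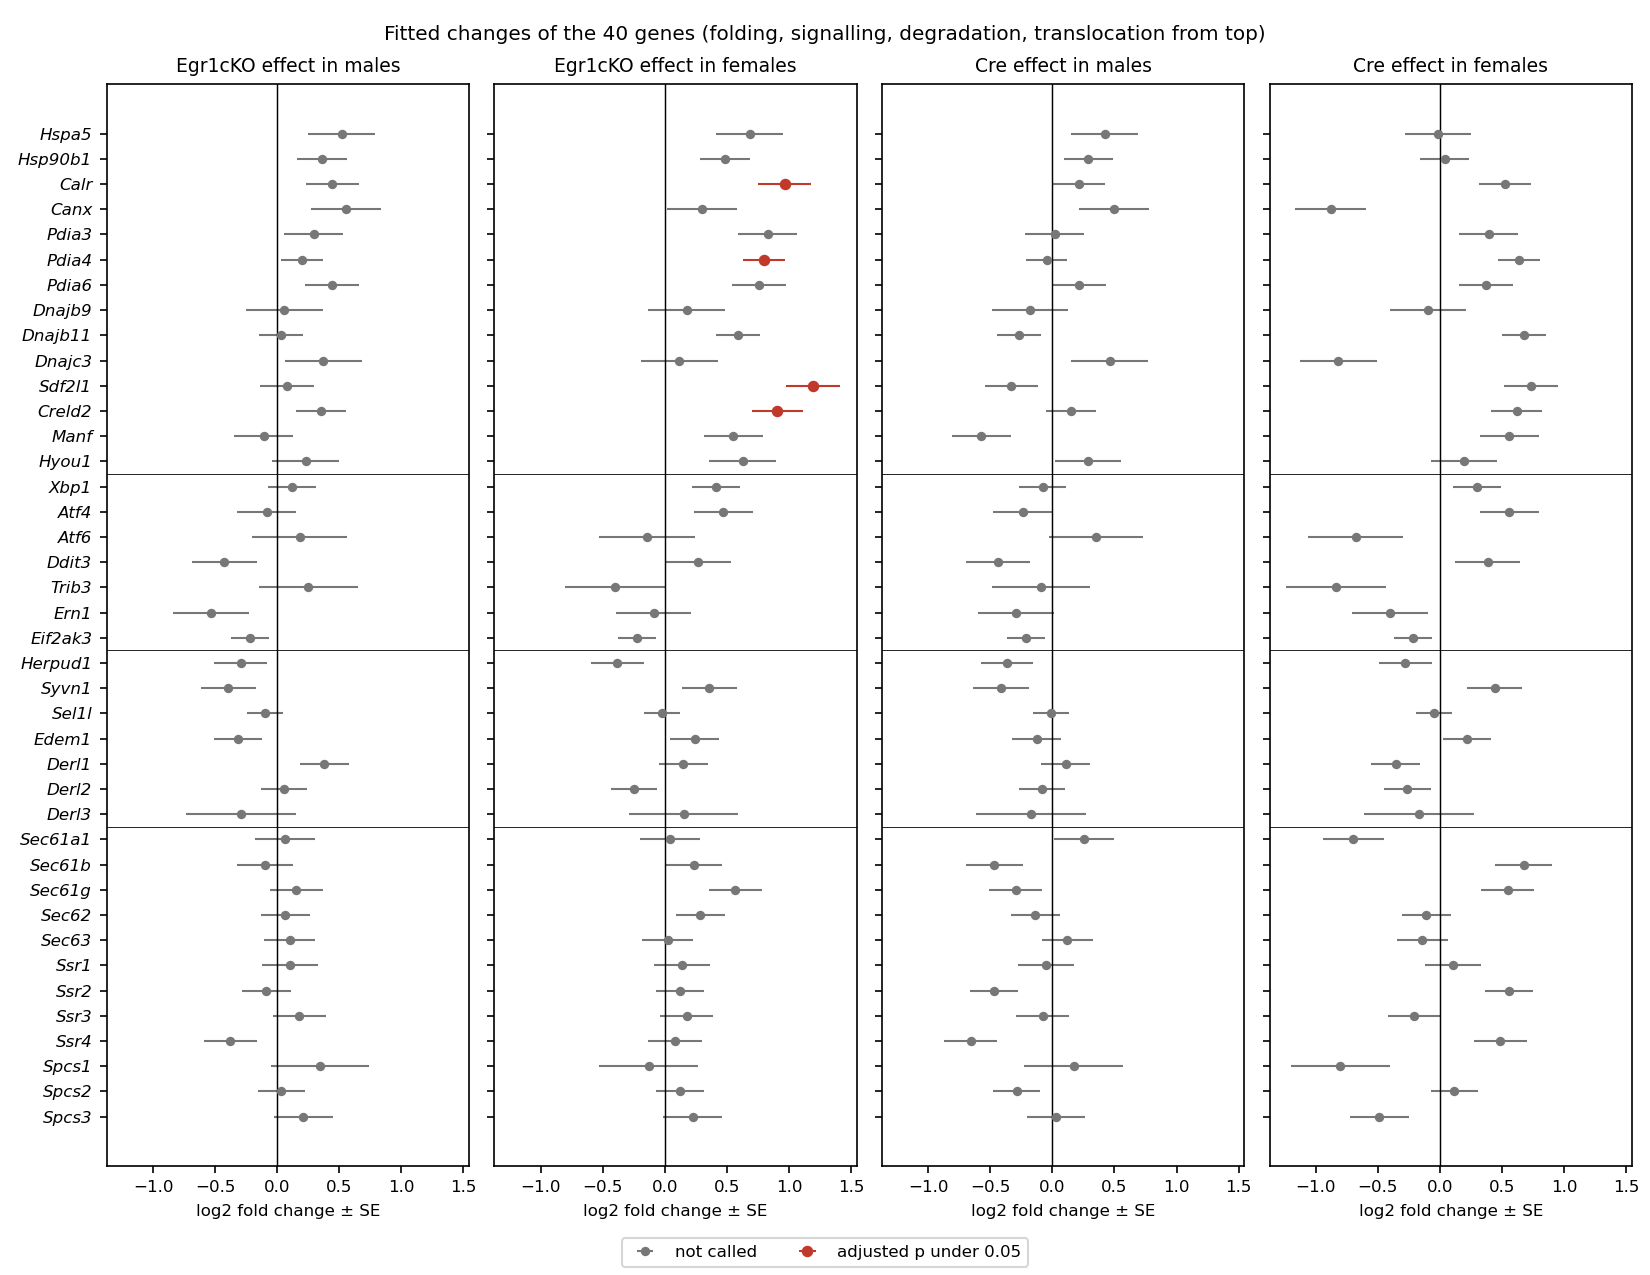
Fitted log2 changes of the 40 genes, with bars of 1 standard error, for Egr1cKO against Egr1cKO control and Cre control against wild type in males and in females; red marks an adjusted p under 0.05. The 4 red points are Sdf2l1, Pdia4, Calr and Creld2 in the female Egr1cKO panel.

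Averaged over sexes and alleles, 6 folding genes were higher in the Cre-carrying groups. Against the 4 groups without Cre, 6 of the 40 genes passed as higher and 0 as lower, where 2.8% and 4.08% of all genes did (6.89% in either direction). All 6 are folding genes: Calr at 0.54 (SE 0.106, edgeR adjusted p = 0.00195), Creld2 at 0.51 (SE 0.101, edgeR adjusted p = 0.00214), Pdia4 at 0.40 (SE 0.0837, edgeR adjusted p = 0.00333), Pdia6 at 0.45 (SE 0.109, edgeR adjusted p = 0.0111), Sdf2l1 at 0.42 (SE 0.107, edgeR adjusted p = 0.0157) and Pdia3 at 0.38 (SE 0.119, edgeR adjusted p = 0.0482). Calr ranged over 537 to 859 CPM (median 642) in the 12 libraries with Cre, against 318 to 599.8 CPM (median 470.5) in the 12 without, and Creld2 over 40.04 to 93.02 CPM (median 63.5) against 34.6 to 53.6 CPM (median 42.1). Pdia6 ranged over 191 to 317 CPM (median 267) against 114 to 256 CPM (median 207). Both sides overlapped for all 3. Positive values were found in 13 of the 14 folding genes (45.7% of all genes), with a median of 0.36, against 0.021 in the translocation genes and -0.034 over all genes. Hspa5 and Hsp90b1 missed the threshold, at 0.40 (SE 0.135, edgeR adjusted p = 0.0699) and 0.29 (SE 0.100, edgeR adjusted p = 0.0767). Leaving out each of the 24 libraries in turn kept the first 5 calls every time, and the Pdia3 call in 6 of the 24 fits.

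Within the libraries of the wild type and Cre control series, 0 of the 40 genes passed, where 1.04% of all genes did. Within the floxed series 5 passed, where 3.15% did. In the wild type and Cre control series the adjusted p was 0.336 for Calr, 0.282 for Creld2 and 0.325 for Pdia4, with changes of 0.37, 0.38 and 0.30. Over all 24 libraries the averaged comparison called 4 of 6 corticotrope and melanotrope markers higher, and 1 of 6 somatotrope and lactotrope markers higher and 4 lower. Their sums were 30657 to 226665 CPM in libraries with Cre against 7507 to 48735 CPM without it, and 45124 to 158627 CPM against 168508 to 413776 CPM. Pomc made up nearly all of the first sum, and Gh and Prl of the second. The averaged comparison also called 2 of 3 thyrotrope and 3 of 6 posterior lobe markers higher. The part of these shifts in the result was not tested. With the mitochondrial share as a covariate 13 genes passed as higher and 1 as lower, where 19.3% of all genes passed in either direction. Without female wild type replicate 1, 7 genes passed as higher and 2 as lower, where 3.24% and 4.89% did.

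The effect of Cre with floxed Egr1 was not shown to differ from its effect without. For the difference between the effects, averaged over sexes, the edgeR test called 0 of the 40 genes and 0.0% of all genes, DESeq2 called 0, and 1 gene was higher and 0 lower at an unadjusted p under 0.05 (2.17% and 2.96% of all genes). It also called 0 without female wild type replicate 1. The smallest p-values belonged to Canx at 0.62 (SE 0.283, edgeR adjusted p = 0.931), Sdf2l1 at 0.44 (SE 0.215, edgeR adjusted p = 0.931) and Derl1 at 0.39 (SE 0.196, edgeR adjusted p = 0.931). All 14 folding genes had a positive difference (50.7% of all genes did), with a median of 0.28. With the mitochondrial share as a covariate, Canx, Dnajc3, Derl1 and Spcs3 passed as higher and none as lower, where 0.789% and 0.67% of all genes did.

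Between the groups without Cre, most fitted values lay below 0 for Egr1cKO control against wild type, and none passed the test. Averaged over sexes, 36 of 40 were negative and 4 positive (47.9% of all genes were positive), with a median of -0.22 against -0.017 over all genes, and the edgeR test called 0 of them and 0.0% of all genes. DESeq2 also called 0, and at an unadjusted p under 0.05, 0 were higher and 10 lower (2.91% and 4.26% of all genes). The smallest p-values belonged to Canx at -0.60 (SE 0.201, edgeR adjusted p = 0.671), Derl1 at -0.41 (SE 0.139, edgeR adjusted p = 0.671) and Spcs3 at -0.45 (SE 0.167, edgeR adjusted p = 0.671). Female wild type replicate 1 decided this as well. Without it 0 genes passed as higher and 14 as lower, where 3.08% and 4.09% of all genes did. Among the 14 were Canx at -0.80, Dnajc3 at -0.71, Atf6 at -0.68, Hspa5 at -0.66, Pdia3 at -0.47 and Hsp90b1 at -0.45. The floxed allele and the numbering series cannot be told apart in this comparison.

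The effect of carrying Cre differed between the sexes for 5 genes, all with a larger value in females. For this difference 5 of the 40 genes passed as higher and 0 as lower, where 0.748% and 1.31% of all genes did (2.06% in either direction). They were Sdf2l1 at 1.09 (SE 0.215, edgeR adjusted p = 0.0141), Manf at 0.90 (SE 0.236, edgeR adjusted p = 0.0458), the TRAP subunit Ssr4 at 0.80 (SE 0.215, edgeR adjusted p = 0.0484), Dnajb11 at 0.75 (SE 0.177, edgeR adjusted p = 0.0330) and Pdia4 at 0.64 (SE 0.167, edgeR adjusted p = 0.0455). The fitted values of Sdf2l1 were 1.20 and 0.73 in the female Egr1cKO and Cre comparisons, and 0.079 and -0.33 in the male ones. Those of Ssr4 were 0.082 and 0.49 in females and -0.38 and -0.66 in males. Ssr4 measured 127, 168 and 218 CPM in female Egr1cKO, against 146, 175 and 163 CPM in female Egr1cKO control. Its unfloxed levels were 217, 181 and 239 CPM in female Cre control, against 177, 149 and 129 CPM in female wild type.

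Manf measured 135, 151 and 191 CPM in female Egr1cKO, against 107, 98.9 and 119 CPM in female Egr1cKO control. Its unfloxed levels were 196, 133 and 234 CPM in female Cre control, against 94.2, 169.7 and 118 CPM in female wild type. Manf also measured 118, 137 and 174 CPM in male Egr1cKO, against 183, 127 and 151 CPM in male Egr1cKO control, while its unfloxed levels were 155, 87.9 and 111 CPM in male Cre control, against 181, 191 and 153 CPM in male wild type. The female floxed groups were separate, and the others overlapped. Of the 24 fits that left out 1 library, Sdf2l1 passed in 24, Dnajb11 in 10, Manf in 8, and Pdia4 and Ssr4 in 6 each. Leaving out 1 library gave counts of 1 to 17: 17 without female wild type replicate 1 (11 higher and 6 lower, where 8.72% and 10.9% of all genes were), 9 without male Cre control replicate 1 (4.04% of all genes), and 1 without each of 14 libraries. Within either numbering series alone, 0 genes passed, where 0.128% of all genes did within wild type and Cre control and 0.0228% within the floxed libraries: Sdf2l1 had an adjusted p of 0.0873 within wild type and Cre control and of 0.308 within the floxed libraries. With the hormone share as a covariate 0 passed (0.0821% of all genes), and with the mitochondrial share 1, Sdf2l1, as higher, where 0.155% and 0.123% of all genes passed as higher and lower. Among cell type markers this difference was called for 1 of 3 thyrotrope markers, lower, and 1 of 6 somatotrope and lactotrope markers, higher, and their part was not tested.

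Between the sexes the smallest p-values belonged to Syvn1, Canx and the signal peptidase gene Spcs3. Averaged over the 4 genotypes, 2 of the 40 genes were higher in females and 8 lower, where 9.99% and 11.7% of all genes were (21.7% in either direction), so the count in both directions together was close to that over all genes. The higher ones were Syvn1, the ligase of endoplasmic reticulum degradation, at 0.57 (SE 0.112, edgeR adjusted p = 0.000987) and Derl3 at 0.62 (SE 0.222, edgeR adjusted p = 0.0469). The lower ones were Canx at -0.67 (SE 0.142, edgeR adjusted p = 0.00200), Spcs3 at -0.45 (SE 0.118, edgeR adjusted p = 0.00831), Spcs1 at -0.76 (SE 0.201, edgeR adjusted p = 0.0107), Herpud1 at -0.34 (SE 0.106, edgeR adjusted p = 0.0211), Dnajc3 at -0.50 (SE 0.155, edgeR adjusted p = 0.0226), Derl1 at -0.31 (SE 0.0980, edgeR adjusted p = 0.0243), Pdia3 at -0.37 (SE 0.119, edgeR adjusted p = 0.0276) and Hspa5 at -0.40 (SE 0.135, edgeR adjusted p = 0.0358). Syvn1 ranged over 77.2 to 174 CPM (median 128) in the 12 female libraries, against 59.1 to 114 CPM (median 87.7) in the 12 male ones, Canx over 127 to 500.2 CPM (median 193) against 229 to 471 CPM (median 349) and Spcs1 over 20.1 to 119 CPM (median 42.02) against 51.9 to 121 CPM (median 80.3). All 3 overlapped, Canx and Spcs1 through female wild type replicates 2 and 3. Without 1 library in turn, Hspa5 passed in 15 of 24 fits, Derl3 in 9 and Pdia3 in 23, and the other 7 in all 24. The mitochondrial share was higher in most female libraries, at 2.14 to 10.4% in females against 2.08 to 4.796% in males, and with it as a covariate 1 gene passed, Ern1 (IRE1) at 0.96, where 1.39% and 1.35% of all genes passed as higher and lower. Without female wild type replicate 1, 2 of the 40 were higher and 8 lower, where 7.73% and 11.1% of all genes were. With the mitochondrial covariate the fitted value was 0.014 for Spcs1, 0.16 for Dnajc3, 0.016 for Derl1 and 0.12 for Hspa5, the opposite sign. The mitochondrial share varied most within female wild type, and no fit with it left out replicate 1 of that group. Within the wild type and Cre control series 0 genes passed, where 1.49% of all genes did, and within the floxed series 9, where 19.2% did. Spcs1 shares part of its exonic bases with Glt8d1, so its reads are uncertain.

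Cell type markers also moved between the sexes. The 3 gonadotrope markers summed to 88.7 to 217 CPM in females against 618 to 1936 CPM in males, with 0 higher and 2 lower of 3 averaged over genotypes. The 3 thyrotrope markers summed to 240.2 to 739.7 CPM against 252 to 1202 CPM, with 0 higher and 2 lower of 3, and the 5 endothelial markers to 108 to 172 CPM against 139.6 to 258 CPM, with 0 higher and 3 lower of 5. The 6 posterior lobe markers summed to 186 to 449.8 CPM against 74.8 to 258 CPM, with 4 higher and 0 lower of 6. The 6 corticotrope and melanotrope markers summed to 11873 to 226665 CPM against 7507 to 112328 CPM, with 3 higher and 1 lower of 6, and the 6 somatotrope and lactotrope markers to 66229.7 to 313294 CPM against 45124 to 413776 CPM, with 1 higher and 3 lower of 6. Calls among the remaining lists were 2 higher and 0 lower of 6 for macrophages, 1 higher and 0 lower of 5 for fibroblasts, 0 higher and 1 lower of 4 for mural cells, 0 higher and 2 lower of 5 for red blood cells, 0 higher and 1 lower of 4 for plasma cells and 0 higher and 0 lower of 5 for stem cells. No marker of these lists was at 0 in all 24 libraries, and the part of the markers in the sex differences was not tested. Pomc made up nearly all of the corticotrope and melanotrope sums, and Gh and Prl of the somatotrope and lactotrope ones.

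In Egr1cKO, 1 of the 40 genes was higher in females and 2 lower, where 5.5% and 7.57% of all genes were (13.1% in either direction). Syvn1 measured 149.7, 157 and 174 CPM in females, against 66.8, 59.1 and 94.6 CPM in males, with no overlap and a difference of 1.13 (SE 0.226, edgeR adjusted p = 0.00342). Canx measured 178, 219 and 199 CPM in females, against 471, 445 and 353 CPM in males, a difference of -1.09 (SE 0.286, edgeR adjusted p = 0.0167). Spcs1 measured 41.95, 38.8 and 37.98 CPM in females, against 106, 99.5 and 81.8 CPM in males, a difference of -1.27 (SE 0.405, edgeR adjusted p = 0.0431). Leaving out 1 of the 6 libraries kept Syvn1 every time, Canx in 3 fits and Spcs1 in none, and a mitochondrial share covariate turned the Canx and Spcs1 differences to 0.16 and 0.35. Among cell type markers in Egr1cKO, calls in females against males were 0 higher and 3 lower of 5 for endothelium, 0 higher and 2 lower of 3 for thyrotropes, 0 higher and 1 lower of 3 for gonadotropes, 1 higher and 2 lower of 6 for somatotropes and lactotropes, and 1 higher and 0 lower of 6 for the posterior lobe. The endothelial markers summed to 108 to 115 CPM in female against 167 to 258 CPM in male Egr1cKO, the thyrotrope markers to 254 to 291 CPM against 678 to 943 CPM and the gonadotrope markers to 119 to 177 CPM against 936 to 1178 CPM. Their part was not tested.

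In Cre control, 2 genes were higher in females and 1 lower, where 1.6% and 2.01% of all genes were (3.61% in either direction). Syvn1 measured 159.6, 118 and 119 CPM in females, against 62.7, 87.2 and 75.5 CPM in males, a difference of 0.81 (SE 0.225, edgeR adjusted p = 0.0424). Sec61b, a small channel subunit, measured 128, 99.2 and 167 CPM in females, against 101, 52.98 and 68.4 CPM in males, a difference of 0.83 (SE 0.230, edgeR adjusted p = 0.0432). Canx measured 202, 186 and 207 CPM in females, against 408, 397 and 429 CPM in males, a difference of -1.05 (SE 0.286, edgeR adjusted p = 0.0394). Syvn1 and Canx did not overlap between the sexes, and Sec61b overlapped through 1 male library. All 3 lay near the threshold: 0 genes passed without male replicate 2 or 3 or female replicate 1 or 3, 1 without female replicate 2 (1.21% of all genes) and 6 without male replicate 1 (4.19%). Among cell type markers, calls in Cre control were 1 higher and 1 lower of 6 for somatotropes and lactotropes, 0 higher and 1 lower of 3 for thyrotropes, 0 higher and 1 lower of 3 for gonadotropes, 1 higher and 0 lower of 6 for the posterior lobe and 0 higher and 1 lower of 4 for plasma cells, and their part was not tested.

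In Egr1cKO control, 35 of the 40 genes had a negative fitted difference between females and males and 5 a positive one (48.3% of all genes), with a median of -0.32 against -0.020 over all genes. The edgeR test called 0 of them, where 0.451% of all genes passed, DESeq2 called 2 (2.31% of all genes), and 0 were higher and 12 lower at an unadjusted p under 0.05 (6.17% and 7.61% of all genes). The smallest p-values belonged to Sdf2l1 at -0.80 (SE 0.217, edgeR adjusted p = 0.103), Pdia3 at -0.82 (SE 0.238, edgeR adjusted p = 0.129) and Canx at -0.84 (SE 0.285, edgeR adjusted p = 0.185). Pdia3 measured 427, 459 and 492 CPM in females, against 867, 686 and 872 CPM in males, with no overlap. In wild type the edgeR test called 0 of the 40 genes, where 0.283% of all genes passed, DESeq2 called 0, and 0 were higher and 5 lower at an unadjusted p under 0.05 (3.76% and 3.27% of all genes). Sdf2l1, Ssr4 and Ssr2 had the smallest p-values there, at -0.57 (SE 0.215, edgeR adjusted p = 0.504), -0.46 (SE 0.215, edgeR adjusted p = 0.688) and -0.42 (SE 0.195, edgeR adjusted p = 0.667). Without female wild type replicate 1, 3 genes were higher in females, Canx at 0.73, Dnajc3 at 0.82 and Atf6 at 0.93, and 0 were lower, where 2.23% and 2.18% of all genes were. The sign for Canx is then opposite to its sign in Cre control and Egr1cKO.

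The changes of the 40 genes were correlated with the length of their transcripts in several comparisons. Across the 40 genes, Spearman's rho between the median length of the coding transcripts and the fitted change was 0.669 for Cre in males and -0.490 for Cre in females, against 0.184 and -0.198 across 15990 genes with a length. For the difference between the sexes in the effect of carrying Cre it was -0.567, against -0.225 across those genes. It was 0.580 for females against males in wild type and -0.629 in Cre control, the opposite sign. Across the 15990 genes the sign also turned, at 0.190 and -0.190. For Egr1cKO in females the rho of the 40 genes was -0.0992, against -0.129 across the 15990. For the slopes on the hormone shares described next it was -0.718 for the sum, against -0.209 across all genes with a length. It was -0.569 for Gh, 0.187 for Prl and -0.449 for Pomc, against -0.188, 0.0619 and -0.115 across all genes with a length. Leaving out female wild type replicate 1, the rho of the 40 genes was -0.491 for Cre in females and -0.547 for the difference between the sexes. It was 0.554 for females against males in wild type. Sec61b, Manf and Ssr2 have the shortest transcripts of the 40, and Atf6, Sel1l and Sec63 the longest. The points share libraries and genes are not independent, so this is a description. The part of transcript length, RNA quality or depth in the changes was not tested.

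**Figure D4:**
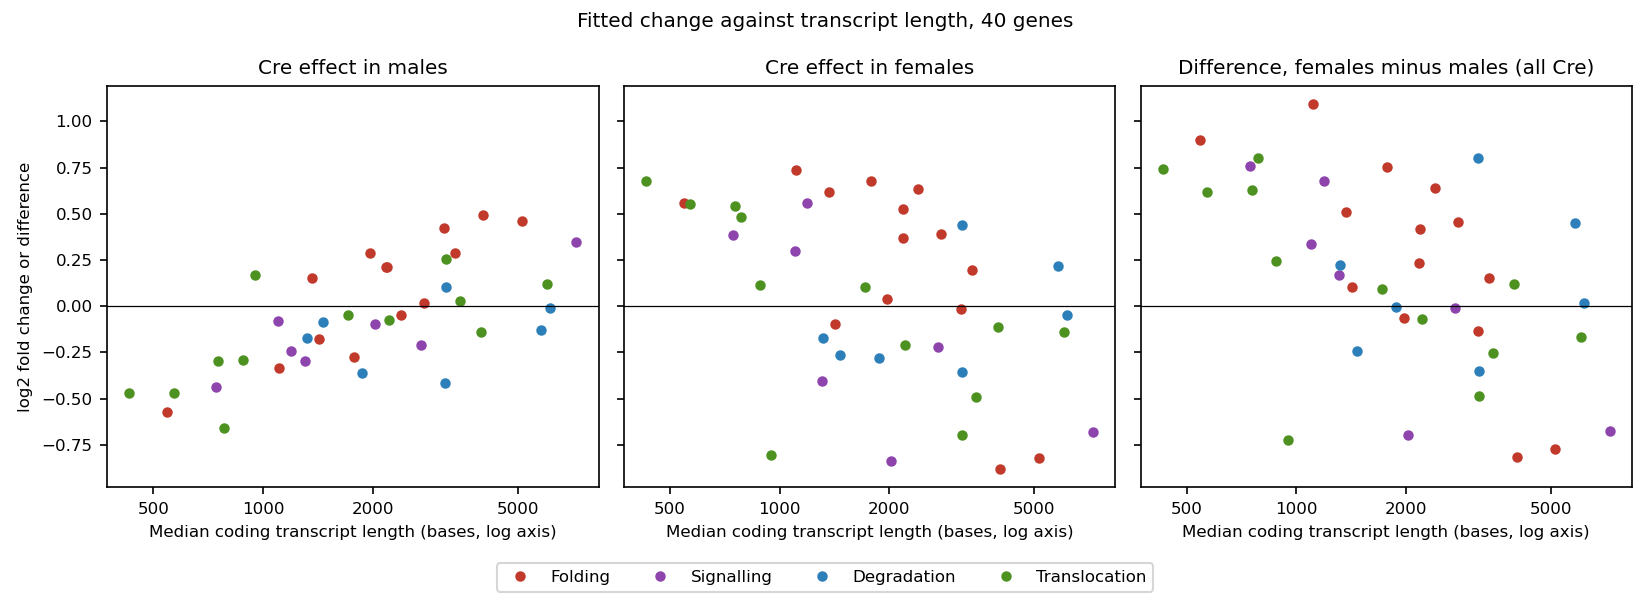
Fitted log2 change of each of the 40 genes against the median length of its coding transcripts (bases, log axis) for Cre in males, Cre in females and the difference between the sexes in the effect of carrying Cre. Longer transcripts sit higher in males and lower in females.

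None of the 40 genes passed a test of its slope on the share of counts taken by the hormones that pass through this machinery. Gh, Prl and Pomc together took 11.3 to 35.8% of the counts. A slope per 10 percentage points of share was fitted across all genes with each group's mean kept, so that only differences among the 3 libraries of a group count. The shares tested were the sum and each hormone alone. For the summed share the edgeR test called 0 of them, where 0.00456% of all genes passed, DESeq2 called 0, and 8 slopes were positive and 0 negative at an unadjusted p under 0.05 (2.93% and 4.07% of all genes). Ssr4 at 0.43 (SE 0.124, edgeR adjusted p = 0.453), Atf4 at 0.42 (SE 0.141, edgeR adjusted p = 0.555) and Ssr2 at 0.33 (SE 0.120, edgeR adjusted p = 0.596) had the smallest p-values, and the median slope was 0.12 against -0.025 over all genes. Ssr4 and Ssr2 have short transcripts, and the rho of slope with length over the 40 genes was -0.718.

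Slopes on the growth hormone share had no common direction, at a median of -0.039 against -0.052 over all genes. The edgeR test called 0 of the 40 genes and 0.0% of all genes, DESeq2 called 0, and 1 was positive and 1 negative at an unadjusted p under 0.05 (3.29% and 4.1% of all genes), with Atf4 at 0.44 (SE 0.162, edgeR adjusted p = 0.590), Sec61a1 at -0.42 (SE 0.177, edgeR adjusted p = 0.638) and Ddit3 at 0.39 (SE 0.189, edgeR adjusted p = 0.676) first. Slopes on the prolactin share were mostly positive: 34 of the 40 genes and all 12 translocation genes (54.8% of all genes), with a median of 0.76 against 0.16 over all genes. Here the edgeR test called 0, where 0.0365% of all genes passed, DESeq2 called 7 (5.58% of all genes), and 16 were positive and 2 negative at an unadjusted p under 0.05 (9.82% and 8.77% of all genes). Pdia3 at 1.40 (SE 0.405, edgeR adjusted p = 0.104), Ssr3 at 1.24 (SE 0.373, edgeR adjusted p = 0.111) and the co-chaperone Dnajb9 (ERdj4) at 1.84 (SE 0.556, edgeR adjusted p = 0.111) had the smallest p-values. Single libraries decided the slopes: 10 genes passed without female Egr1cKO control replicate 1, where 4.0% of all genes did, and 11 without replicate 2, where 6.83% did. Without female wild type replicate 1, whose prolactin share was 9.72% against 14.5% and 14.4% in its group, the median slope was 0.22. With sex in place of the group means the Pdia3 slope turned to -0.28.

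Slopes on the Pomc share were positive in 32 of the 40 genes (49.1% of all genes), with a median of 0.25 against -0.010 over all genes. The edgeR test called 0 of the 40 genes and 0.0% of all genes, DESeq2 called 0, and 5 were positive and 0 negative at an unadjusted p under 0.05 (2.39% and 3.29% of all genes). Sdf2l1 at 0.65 (SE 0.217, edgeR adjusted p = 0.686), Creld2 at 0.54 (SE 0.211, edgeR adjusted p = 0.791) and Xbp1 at 0.50 (SE 0.204, edgeR adjusted p = 0.802) had the smallest p-values. The Pomc share itself was 8.75, 16.9 and 18.8% in female Egr1cKO, against 3.85, 2.398 and 1.11% in its control, and those groups did not overlap. With female wild type replicate 1 left out, none of the 40 genes passed on any of the 4 shares, where 0.0% to 0.0603% of all genes did. Each hormone is itself part of the total count, and a slope on a share of it is relative to all other messengers.

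**Figure D5:**
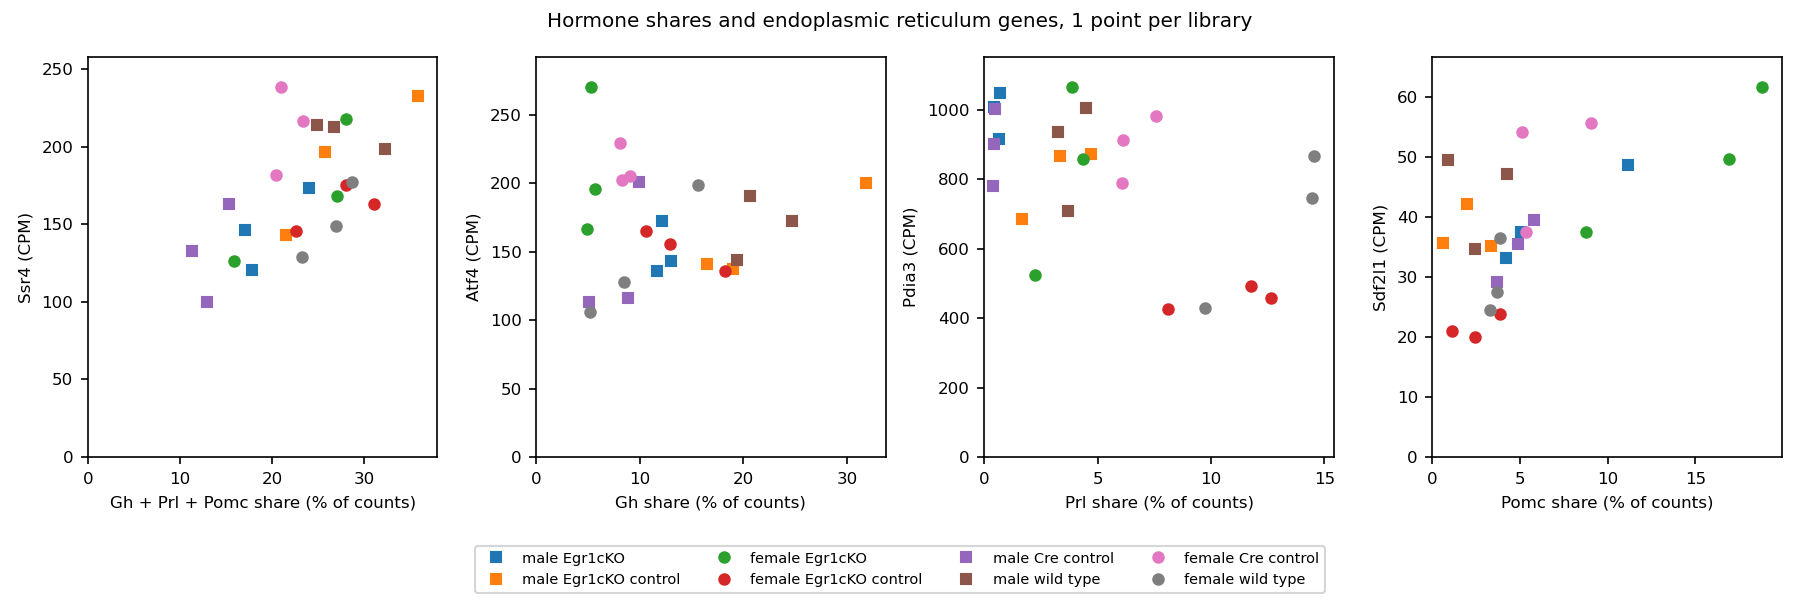
CPM of 4 genes against a hormone share of the counts (percent) in 24 libraries, coloured by group: Ssr4 against the summed share, Atf4 against Gh, Pdia3 against Prl and Sdf2l1 against Pomc. Female Egr1cKO libraries 2 and 3 lie at the right of the Pomc panel, with high Sdf2l1.

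Of 94 further genes of the pathway in 7 lists, at most 3 passed in any genotype comparison. In female Egr1cKO 0 were higher and 1 lower, where 0.762% and 1.45% of all genes were. It was Slc7a11, a cystine transporter gene under ATF4, with 0, 0 and 0 counts in female Egr1cKO against 6, 12 and 16 counts in female Egr1cKO control, with no overlap. In the male Egr1cKO, male Cre and female Cre comparisons 0 passed. For Cre averaged over groups 1 was higher and 2 lower, where 2.8% and 4.08% of all genes were. Ppp1r15a (GADD34, which reverses the PERK block) was higher at 0.60, and Chac1 and Kdelr3 were lower at -0.88 and -0.58. Early response genes, Fos among them, summed to 166 to 3587 CPM in male and 329 to 3862 CPM in female Cre control. Wild type gave 138 to 484 and 183 to 1034 CPM. Egr1cKO gave 571 to 1549 CPM in males and 288 to 1342 CPM in females, against 136 to 483 and 79.2 to 495 CPM in Egr1cKO control. The part of the early response genes in the Ppp1r15a result was not tested. Creb3l1, a membrane-bound relative of ATF6, was higher in females than in males at 2.22 on the log2 scale averaged over genotypes, and its Cre effect differed between the sexes by 1.64. Averaged over genotypes, 8 of the 94 were higher in females and 19 lower, where 9.99% and 11.7% of all genes were, with Fkbp11 at 0.995 and Edem2 at 0.54 also among the higher, and Stt3b, a catalytic oligosaccharyltransferase subunit, at -0.59 and Sdf4 at -0.75 among the lower. In both comparisons of floxed with unfloxed groups 0 passed.

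The 9 genes whose windows hold the CCAAT and CCACG boxes, shown above, can be set beside the 24 genes whose windows do not. For Egr1cKO in females 9 of 9 with the element were positive, with a median of 0.48, against 17 of 24 without it, with a median of 0.18. For Egr1cKO in males 7 of 9 with the element were positive, with a median of 0.37, against 15 of 24 without it, with a median of 0.057. For Cre in males 7 of 9 with the element were positive, with a median of 0.21, against 3 of 24 without it, with a median of -0.16, and for Cre in females 5 of 9 with the element were positive, with a median of 0.037, against 13 of 24 without it, with a median of 0.11. The genes with the element therefore had the higher median in the first 3 of these comparisons and not in the last. The order in the last one depended on female wild type replicate 1: without it, 5 of 9 with the element were positive, with a median of 0.13, against 11 of 24 without it, with a median of -0.040. Of the 4 genes called in female Egr1cKO, Calr and Creld2 carry it and Sdf2l1 and Pdia4 do not. These counts describe the windows and carry no test. Apart from Derl3 and Syvn1, the 9 genes with the element are folding genes, while the 24 without it span all 4 roles. Element and role were not separated here.

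In all, 21 of the 40 genes passed in none of the 13 contrasts and 4 slopes, and 19 in at least 1. The same count over all genes was not made, so the 19 cannot be read as many or few. The averaged comparison of the sexes alone called 21.7% of all genes. Of those 21, 9 have not been described so far. Sel1l, with the smallest spread of all, ranged from 117 to 151 CPM over the 24 libraries, and its fitted changes for Cre averaged and for females against males averaged were -0.045 and -0.043. Eif2ak3, the gene for PERK, was negative in all 4 pairs, from -0.23 to -0.21, at -0.22 (SE 0.0758, edgeR adjusted p = 0.0814) averaged. Sec62 and Sec63, which help chains into the channel after their synthesis, lay at 0.026 and 0.026 on the log2 scale for Cre averaged. Ssr1, Spcs2, Derl2, Edem1 and Trib3 lay at 0.075, -0.0041, -0.13, 0.0043 and -0.27. Trib3, at 2.102 to 10.05 CPM, was the least counted and among the less precise.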

How the data were processed

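The deposited table holds raw counts per gene by the authors for 24 libraries. Per the submitters' processing notes, FastQC, Trim Galore and STAR 2.7.9 were used with the GRCm38 build; the counting tool was not given in the sources used here, nor was the annotation release. Per the labels, polyA libraries from 1.5 ug of RNA were not stranded. The 40 genes and the other lists were chosen with earlier results of these data known. Of 35191 genes, 21927 passed edgeR's filterByExpr. edgeR 4.0.16 (R 4.3.3, limma 3.58.1) fitted 8 group means to all of them by its robust quasi-likelihood test with TMM (16 residual degrees of freedom, median biological coefficient of variation 0.337), with 13 contrasts and 4 slopes, each adjusted by Benjamini-Hochberg over all genes at a threshold of 0.05. CPM are TMM-scaled. The averaged contrast for Cre sets the mean of 4 Cre-carrying groups against the other 4. The sex difference in Cre effect is the female minus the male value. Transcript lengths and overlaps come from GENCODE M21, which matched 35065 of the gene IDs, with 126 unmatched. No pair of replicates agreed within sampling noise: the lowest chi-square was 16.3 per degree of freedom. The text names the genes that passed, up to 10 a direction, or else the 3 smallest p-values, and gives 6 genes in every library. Alternatives were another scaling, no filter, DESeq2 1.42.0, covariates and leaving out each library. The fits were tested on simulated counts.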

Additional observations from a re-analysis of the deposited data

Results flagged for a closer look

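The effect of carrying Cre, averaged over the floxed and unfloxed groups, differed between the sexes by a test of the difference itself for 5 of the 40 genes, all with the larger value in females, where 0.748% of all genes passed as higher and 1.31% as lower. The differences were 1.09 on the log2 scale for Sdf2l1, 0.90 for Manf, 0.80 for Ssr4, 0.75 for Dnajb11 and 0.64 for Pdia4 (edgeR adjusted p of 0.0141, 0.0458, 0.0484, 0.0330 and 0.0455 in that order). The Sdf2l1 difference passed in all 24 fits without 1 library, and the other 4 in 6 to 10 of them. None passed within either numbering series of libraries alone. Without female wild type replicate 1 the count was 17, 11 higher and 6 lower, where 8.72% and 10.9% of all genes were. With the hormone share as a covariate 0 genes passed, and with the mitochondrial share 1.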

How the results depend on the processing

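Counts are of the 40 genes passing. For the contrasts, only libraries of the compared groups were left out. Leaving out each library in turn gave 1 to 8 for Egr1cKO in females, 0 to 12 for Cre in females, 5 to 9 for Cre averaged, 1 to 17 for the sex difference in Cre effect, 0 to 14 for Egr1cKO control against wild type and 0 to 11 for the Prl slope. For females against males it gave 0 to 3 in wild type, 0 to 6 in Cre control, 1 to 3 in Egr1cKO and 7 to 13 averaged. DESeq2 called 7 for Egr1cKO in females, 4 for Cre in females, 10 for Cre averaged, 8 for the sex difference in Cre effect, 7 for the Prl slope, and for females against males 9 in Cre control, 2 in Egr1cKO control and 5 in Egr1cKO. Without a filter on low counts these were 4 for Cre in females, 10 for Cre averaged, 11 for the sex difference, 7 for the Prl slope, and 7, 4 and 7 for females against males in Cre control, Egr1cKO control and Egr1cKO. With only the compared groups, females against males gave 10, 6 and 8 in the same 3 genotypes. With the hormones out of the totals Cre in females gave 1. The share of all genes passing also changed with the setting. For Cre in females it was 1.2% by edgeR and 4.61% by DESeq2, and for the Prl slope 0.0365% and 5.58%. A change in these counts, or in those below, is therefore not a result about the 40 genes alone.

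With the hormone share as a covariate the counts were 7 for Egr1cKO in females, 6 for Cre in females, 3 for Cre averaged, 0 for the sex difference in Cre effect and 0 for females against males in Cre control. With the mitochondrial share they were 20, 4 and 14 for the first 3, 4 for the difference between floxed and unfloxed Cre effects, 1 for the sex difference, and 1 for females against males both in Cre control and averaged. Within the wild type and Cre control libraries, chosen after seeing the data, Cre averaged, the sex difference and females against males averaged gave 0, and within the floxed libraries the sex difference gave 0. With sex in place of group means the Gh, Prl and Pomc slopes gave 1, 3 and 4. Signs turned, all on the log2 scale, with the hormone share for Ssr2 in male Cre control (0.015), and with the mitochondrial share for Canx (0.16) and Spcs1 (0.35) in females against males in Egr1cKO and for Spcs1 (0.014), Dnajc3 (0.16), Derl1 (0.016) and Hspa5 (0.12) in females against males averaged. With sex in place of group means the Prl slope of Pdia3 turned too (-0.28). The cause was not tested. The mitochondrial share varied most within female wild type, and no fit with it left out replicate 1 of that group.

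Scaling by DESeq2's size factors moved no count beyond 1.5 times and turned no sign. No paired analysis was possible because the labels give no replicate numbers that the groups share. With 3 libraries a group, and 2 once 1 is left out, a missed threshold does not show that a gene did not differ, and the lone or paired libraries are then assumed to vary like the other groups. Counting error and low counts limit Trib3, Derl3 and Ddit3 most.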
